A study of Mus musculus with 8 samples.

Results

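The genes described here encode the channel through which new secretory proteins enter the endoplasmic reticulum, and the proteins attached to it. They are Ssr1, Ssr2, Ssr3 and Ssr4, which encode the alpha, beta, gamma and delta subunits of the translocon-associated protein complex; Sec61a1, Sec61b and Sec61g, which encode the alpha, beta and gamma subunits of the Sec61 channel; and Sec62 and Sec63, which encode channel partners. These 9 genes were taken by symbol from 35596 genes, and each symbol matched 1 gene ID. The set was chosen by the TPM of Ssr4 (defined below), which was higher in weight-cycled than in obese islets, so differences of members between these groups are descriptions without a p.

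Polyadenylated RNA was sequenced from hand-picked pancreatic islets, which hold the insulin-secreting beta cells, of male mice of the inbred strain C57BL/6J. For the 4 obese libraries, 9 weeks on 10% low-fat diet (LFD) came before 18 weeks on 60% high-fat diet (HFD). For the 4 weight-cycled libraries, HFD and LFD alternated in periods of 9 weeks, in the order HFD, LFD, HFD. All mice ended on HFD, after 18 unbroken weeks in the obese and 9 in the weight-cycled group, so the cycling and the length of that period cannot be told apart, and no lean group is used here. Since the labels name no animals, libraries may come from single or pooled mice, and p-values reflect only how these libraries spread, which may be technical.

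A secretory protein such as preproinsulin begins with a signal peptide, which is bound by the signal recognition particle as it leaves the ribosome and is brought to the Sec61 channel in the endoplasmic reticulum membrane. The Sec61 alpha subunit forms the pore, and the small beta and gamma subunits lie at its side. The translocon-associated protein complex sits next to the pore and helps certain signal peptides, that of insulin among them, to open it. Sec62 and Sec63 help proteins that enter poorly or after translation, and Sec63 recruits the lumenal chaperone BiP, the product of Hspa5. Insulin is the main cargo of this route in beta cells.

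The stretches of DNA before Ssr4, Sec61g and Sec61b are shown because these members had the highest signed differences, weight-cycled minus obese, and because Ssr4 and Sec61b each begin next to a gene read from the other strand. The sequences are from RefSeq on build GRCm38.p6, the assembly that mm10 names. Each stops where an annotated exon begins, and capitals mark CG dinucleotides, which are dense in promoters of widely expressed genes.
Ssr4, chrX:73786898-73787022, plus strand: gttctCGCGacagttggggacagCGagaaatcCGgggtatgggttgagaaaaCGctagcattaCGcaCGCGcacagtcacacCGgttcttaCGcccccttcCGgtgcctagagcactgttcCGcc
Sec61b, chr4:47474411-47474657, plus strand: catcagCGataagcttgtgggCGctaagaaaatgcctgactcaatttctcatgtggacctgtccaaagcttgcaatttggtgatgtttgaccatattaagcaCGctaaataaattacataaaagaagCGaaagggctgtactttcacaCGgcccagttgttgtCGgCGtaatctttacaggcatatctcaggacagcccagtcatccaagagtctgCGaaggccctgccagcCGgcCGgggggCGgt
Sec61g, chr11:16508485-16508734, minus strand: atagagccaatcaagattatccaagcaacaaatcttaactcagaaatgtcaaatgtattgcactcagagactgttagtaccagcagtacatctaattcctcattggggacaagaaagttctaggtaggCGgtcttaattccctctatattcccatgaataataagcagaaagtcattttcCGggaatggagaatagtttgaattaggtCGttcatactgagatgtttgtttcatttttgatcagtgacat

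The stretch shown for Ssr4 is 125 bases long and lies between the RefSeq starts of Ssr4 and Idh3g, a gene of the citric acid cycle. It holds 12 CG dinucleotides, against 11 in the 247 bases shown for Sec61b and 3 in the 250 bases shown for Sec61g. Over the 250 bases before the start, Ssr4 had 18 of them, more than 78.3% of 32817 promoter windows of that length, and Sec61g had 3, more than 29.1% of them. Sec63, the member with the lowest signed difference, had 18 in its 250 bases, as many as Ssr4.

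Transcripts of the 9 genes were present in every library, over a wide range of levels. Values are in TPM, a unit that corrects for transcript length and is relative to the total of a library, so genes can be compared within a library. TPM holds no record of depth, which is unknown here, and counting error cannot be given. Mean TPM over the 8 libraries ran from 636 for Ssr4 and 419 for Sec61b through 134 for Ssr2, 61.9 for Ssr3, 44.6 for Sec61g, 29.7 for Sec61a1, 19.2 for Ssr1 and 11.8 for Sec62 to 7.61 for Sec63. Ssr4 was more abundant than 99.5% of the 8127 genes with a mean of at least 1 TPM, and Sec63 than 68.2% of them. The subunits of 1 complex were thus far from equal at the level of RNA, since Sec61b was at 10.3 to 22.6 times the TPM of Sec61a1 within a library.

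The order of levels was not used to choose the genes and was tested between neighbours in it. The same means set the order, and both groups were pooled. The pair of Ssr4 over Sec61b holds the Ssr4 values that chose the set, so nothing is read from its p. For 6 of the 8 neighbouring pairs the gene with the higher mean was higher in 8 of 8 libraries (exact sign-flip permutation test on the log2(TPM + 1) differences within libraries, two-sided, p = 0.0078, the smallest the design allows, and 0.0104 adjusted over the 8 pairs). For Ssr3 over Sec61g and Sec61g over Sec61a1 this held in 7 of 8 libraries (exact permutation p = 0.0156, and 0.0156 adjusted). The exceptions were weight-cycled replicate 4, where Sec61g stood at 75.9 TPM and Ssr3 at 71.0 TPM, and obese replicate 2, where Sec61g stood at 35.6 TPM and Sec61a1 at 37.0 TPM. In obese islets the ranges of Ssr4 and Sec61b overlapped, as did those of Sec61g and Sec61a1. In weight-cycled islets the ranges of Ssr3 and Sec61g overlapped, and those of Sec62 and Sec63. Annotated coding transcripts of Ssr1 run from 523 to 9333 bases, so its level depends on how reads were assigned to them.

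**Figure D1:**
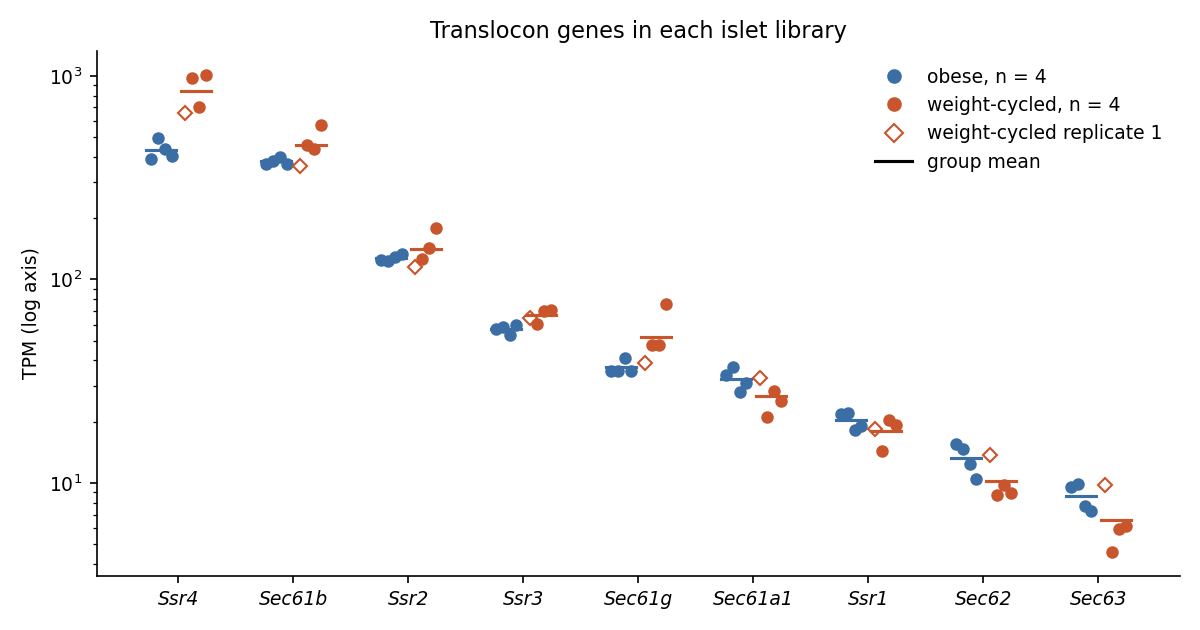
TPM on a log axis for the 9 genes in order of mean level, with 1 point per library, lines at group means (n = 4 each) and weight-cycled replicate 1 as an open diamond. The 4 weight-cycled libraries lie above the 4 obese ones for Ssr4 and Ssr3, and the diamond lies among the obese points for 5 of the 9 genes.

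The libraries of the weight-cycled group were not alike. Weight-cycled replicate 1 lay within the obese range for 5 of the 9 genes, against 1 or 2 genes in each of the others, while weight-cycled replicate 4 was the highest of its group for 5. Across the 8127 genes tested, limma on log2(TPM + 1) called 2044 (25.2%) at an adjusted p under 0.05, of which 98 (1.21%) were higher and 1946 (23.9%) lower in weight-cycled islets, and the median log2 difference of all tested genes was -0.26. Values of members are given below beside that median. Without weight-cycled replicate 1 limma called 58% of genes, 3.32% higher and 54.6% lower, and without obese replicate 1 it called 0 (2714 at an unadjusted p under 0.05). Leaving out obese replicate 2 or 3 or weight-cycled replicate 2, 3 or 4 left 3 to 22 genes higher and 7 to 49 lower, whereas leaving out obese replicate 4 left 55 higher and 1681 lower.

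Among the subunits of the translocon-associated complex, Ssr4 had the largest difference. Ssr4 (ENSMUSG00000002014.12, chromosome X, 73787028 to 73790830, build mm10) was at 389, 498, 439 and 404 TPM in obese replicates 1 to 4 and at 659, 980, 704 and 1015 TPM in weight-cycled replicates 1 to 4. The groups did not overlap, with weight-cycled replicates 2 and 4 the highest and replicate 1 the lowest of its group. The means were 433 ± 48.3 and 839 ± 184 TPM (SD, n = 4 each), a ratio of 1.94, and the log2 difference was 0.93 (SE 0.150), or 1.19 above the median of tested genes. It ranked 17 of 8127 by that difference. Ssr4 was the only member that limma called in all 8 libraries together, so 1 of 9 members was called against 25.2% of all tested genes. The contrast chose the set, so nothing is read from that count. The difference stayed between 0.75 and 1.53 over 20 alternative settings and passed in 17 of them. The 3 in which it did not were those without obese replicate 1, without weight-cycled replicate 4 and without the filter on low values. Median-of-ratios scaling and length correction, each without weight-cycled replicate 1, were added after the data were seen. They gave 1.53 and 1.21 and both passed, and the highest of the other settings was 1.31.

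Ssr3, the gene of the gamma subunit, was the other member whose groups did not overlap (ENSMUSG00000027828.12, chromosome 3, 65379655 to 65392623). It was at 57.3, 58.2, 53.6 and 59.7 TPM in the obese libraries and at 64.6, 60.5, 70.4 and 71.0 TPM in the weight-cycled libraries, with a log2 difference of 0.21 (SE 0.0861). The 2 members without overlap were both higher, against 1.3% of tested genes that were higher without overlap and 22.4% without overlap in either direction. One of them is Ssr4, by which the set was chosen, and 2 of 9 is near the share in either direction, so nothing is read from this count. Ssr2, the gene of the beta subunit (ENSMUSG00000041355.13, chromosome 3, 88575876 to 88588419), was at 125, 124, 128 and 133 TPM in obese libraries and 115, 126, 143 and 179 TPM in weight-cycled ones. The weight-cycled values spread on both sides of the obese ones, and the log2 difference was 0.12 (SE 0.124). It was 0.0005 without weight-cycled replicate 4 and 0.21 without replicate 1.

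Ssr1, the gene of the alpha subunit (ENSMUSG00000021427.10, chromosome 13, 37966605 to 37994217), pointed the other way on TPM as deposited. It was at 21.8, 22.1, 18.2 and 19.1 TPM in obese and 18.4, 14.4, 20.4 and 19.2 TPM in weight-cycled libraries. Only weight-cycled replicate 2 lay below the obese range. The log2 difference was -0.16 (SE 0.117), which is 0.09 above the median of tested genes, and it turned to 0.20 after median-of-ratios scaling, to 0.03 after quantile scaling and to 0.07 after length correction.

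Ratios within a library do not depend on a scaling that applies a common factor to all genes of a library. Quantile scaling and length correction can change them. Those with Ssr4 carry the value that chose the set, so they are descriptions too, and their lack of overlap adds nothing to that of Ssr4 itself. Ssr4 stood at 17.8 to 24.1 times the TPM of Ssr1 in obese libraries and at 34.6 to 68.2 times in weight-cycled libraries. Its ratio to Ssr2 was 3.04 to 4.03 in obese and 4.92 to 7.80 in weight-cycled libraries, and its ratio to Ssr3 was 6.77 to 8.56 and 10.0 to 16.2. None of these 3 ratios overlapped between the groups. Ssr4 made up 67.7% ± 2.59 of the summed TPM of the 4 Ssr genes in obese and 78.5% ± 3.42 in the weight-cycled group (SD, n = 4 each). Weight-cycled replicate 1, which lay among the obese libraries for most members, had a share of 76.9%, above the highest obese share of 71.0%. The ratio of Ssr3 to Ssr1 also did not overlap, at 2.63 to 3.12 and 3.46 to 4.21, whereas that of Ssr2 to Ssr1 did, at 5.60 to 7.05 and 6.25 to 9.28.

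**Figure D2:**
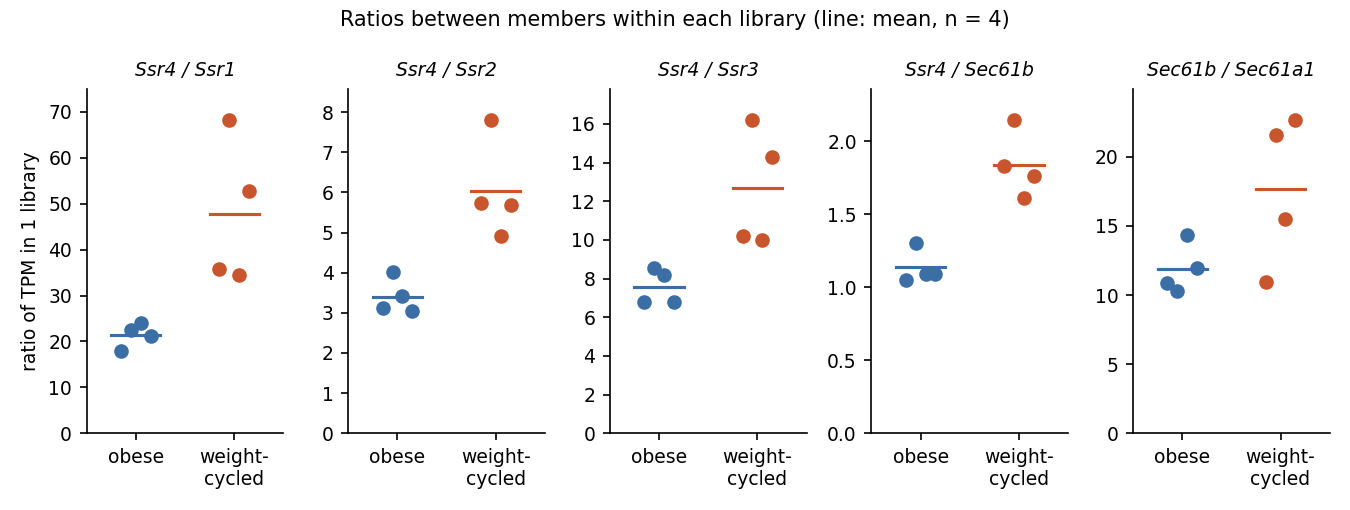
Ratio of the TPM of 2 members within each library, on linear axes from 0, with 1 point per library and lines at group means (n = 4 each). The ratios of Ssr4 to Ssr1, Ssr2, Ssr3 and Sec61b do not overlap between the groups, while that of Sec61b to Sec61a1 does.

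The small subunits of the Sec61 channel and its pore subunit pointed in different directions on TPM as deposited. Sec61g (ENSMUSG00000078974.10, chromosome 11, 16500530 to 16508484) was at 35.6, 35.6, 41.1 and 35.5 TPM in obese and 38.7, 47.4, 47.4 and 75.9 TPM in weight-cycled libraries. Replicates 2, 3 and 4 of the weight-cycled group lay above the obese range and replicate 1 within it. The means were 36.9 ± 2.75 and 52.3 ± 16.2 TPM (SD, n = 4 each) and the log2 difference was 0.45 (SE 0.166), which fell to 0.26 without weight-cycled replicate 4 and was 0.58 without replicate 1.

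Sec61b (ENSMUSG00000053317.11, chromosome 4, 47474658 to 47483242) was at 370, 382, 401 and 370 TPM in obese libraries and 359, 457, 437 and 575 TPM in weight-cycled ones. Here weight-cycled replicate 1 was the lowest of all 8 libraries and the other 3 were above the obese range. The log2 difference was 0.24 (SE 0.128), and 0.13 without weight-cycled replicate 4. The ratio of Ssr4 to Sec61b was 1.05 to 1.30 in obese and 1.61 to 2.14 in weight-cycled libraries, so Ssr4 RNA exceeded that of this abundant channel subunit in all 8 libraries, by more in each weight-cycled one.

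Sec61a1, the pore gene (ENSMUSG00000030082.14, chromosome 6, 88503579 to 88518905), was at 33.9, 37.0, 28.0 and 30.9 TPM in obese and 32.8, 21.2, 28.2 and 25.4 TPM in weight-cycled libraries. The groups overlapped, with weight-cycled replicates 2 and 4 below the obese range. The log2 difference was -0.27 (SE 0.132), close to the median of tested genes, and became 0.10 under median-of-ratios scaling and 0.04 when corrected for length. The ratio of Sec61b to Sec61a1 was 11.9 ± 1.77 in obese and 17.7 ± 5.47 in the weight-cycled group (SD, n = 4 each), with overlap. Its close relative Sec61a2 was below 1 TPM on average in both groups, at 0.834 ± 0.0937 and 0.755 ± 0.152 TPM, and was not tested.

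Sec62 and Sec63, the genes of the channel partners, were the least abundant members and had the lowest log2 differences on TPM as deposited. Sec62 (ENSMUSG00000027706.8, chromosome 3, 30792875 to 30821263) was at 15.5, 14.7, 12.4 and 10.5 TPM in obese and 13.8, 8.69, 9.79 and 8.91 TPM in weight-cycled libraries. Sec63 (ENSMUSG00000019802.13, chromosome 10, 42761496 to 42832514) was at 9.60, 9.89, 7.67 and 7.30 TPM in obese and 9.77, 4.59, 5.91 and 6.13 TPM in weight-cycled libraries. For both genes weight-cycled replicate 1 lay within the obese range and the other 3 below it. The log2 differences were -0.34 (SE 0.154) and -0.37 (SE 0.179), against -0.26 for the median of tested genes. After median-of-ratios scaling they were 0.01 and -0.04, and after length correction 0.01 and 0.03. The ratio of Sec62 to Sec63 was 1.54 ± 0.0903 in obese and 1.60 ± 0.221 in the weight-cycled group (SD, n = 4 each), so the pair kept a like ratio in both groups within their spread.

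On TPM as deposited, 5 members were above 0 and 4 below, with a median of 0.12. After median-of-ratios scaling, which moved the median of tested genes from -0.26 to 0.03, 8 were above 0 and Sec63 below, and after length correction all 9 were above 0. Quantile scaling gave 6 above and 3 below. Ssr2, Ssr3, Ssr4, Sec61b and Sec61g kept their sign in all 20 alternatives, while Ssr1 kept it in 14, Sec61a1 in 16, Sec62 in 18 and Sec63 in 19. These 20 include the settings added after the data were seen. Median-of-ratios scaling called 1 member (1.27% of tested genes) and length correction 2, Ssr4 and Ssr3 (3.31% of tested genes). Without weight-cycled replicate 1, 6 members were called on TPM, Ssr4, Sec61b and Sec61g higher and Sec61a1, Sec62 and Sec63 lower, beside 58% of tested genes. Array weights also called 6 members (59% of tested genes), the replicate number as a block 3 (35.7%) and rescaling without hormone and mitochondrial genes 2 (25.1%).

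**Figure D3:**
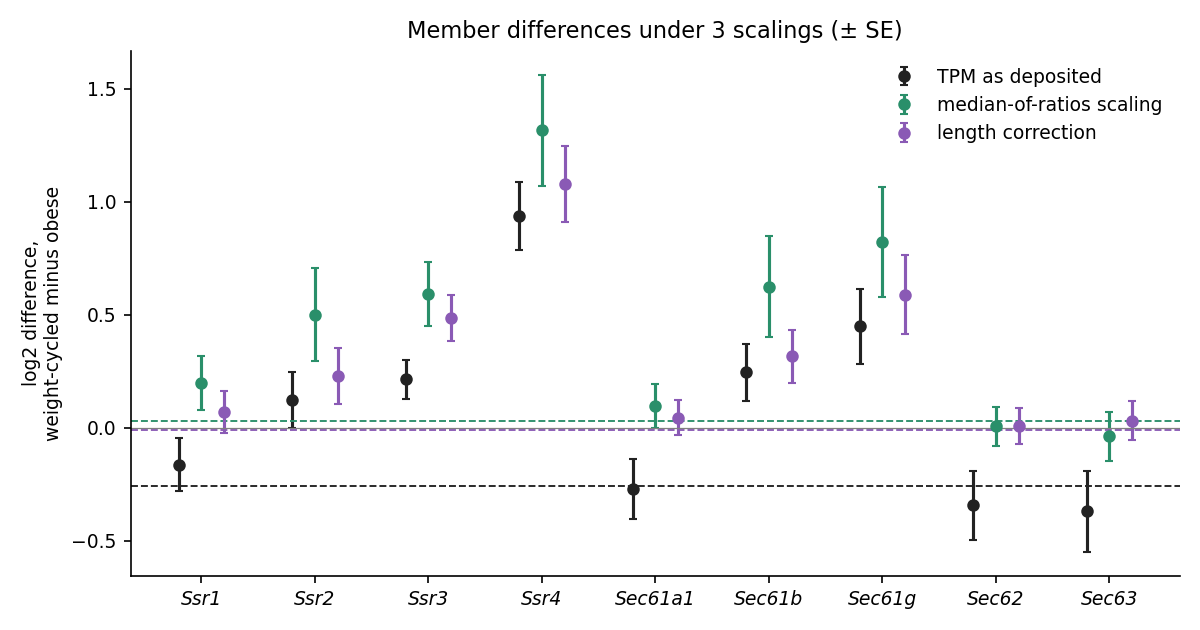
Log2 difference, weight-cycled minus obese, for each member with its SE, from TPM as deposited, with median-of-ratios scaling and with length correction, and the median of all tested genes dashed in the same colour. Ssr4 is the highest member in each of the 3, and Sec62 and Sec63 lie near the dashed line in each.

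Members with short transcripts tended to have higher differences than those with long ones, but not in strict order. Sec61b at 430 bases was at 0.24 and Ssr2 at 569 bases at 0.12, below the longer Ssr4 at 0.93. Ssr3, at 2213 bases, was above 0, while Ssr1, at 1717.5 bases, was below 0, and so was Sec61a1 at 3172 bases. Lengths are medians over annotated coding transcripts, which run from 523 to 9333 bases for Ssr1 and from 1469 to 2957 for Ssr3. Which of these 2 is shorter as expressed is therefore unknown, and the bin of Ssr1 is uncertain. Sec61b, Ssr2, Sec61g and Ssr4 have annotated lengths of 430 to 783 bases and fell in the shortest of 5 equal bins of tested genes, whose median log2 difference was -0.14. Sec62 and Sec63, at 3967 and 6032 bases, fell in the longest bin, whose median was -0.36. Set against its own bin, Ssr4 was at 1.08, Sec61g at 0.59, Ssr3 at 0.52, Sec61b at 0.39 and Ssr2 at 0.27, while Ssr1 was at 0.08 and Sec61a1, Sec62 and Sec63 were between -0.01 and 0.03. Across the 9 members Spearman's rho between length and difference was -0.77, and across all 8127 tested genes it was -0.37. Genes are not independent replicates and share the same libraries, so both are descriptions. Length correction, which removes that trend from each library, left Ssr4 at 1.08 (SE 0.168) and Ssr3 at 0.49 (SE 0.103).

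**Figure D4:**
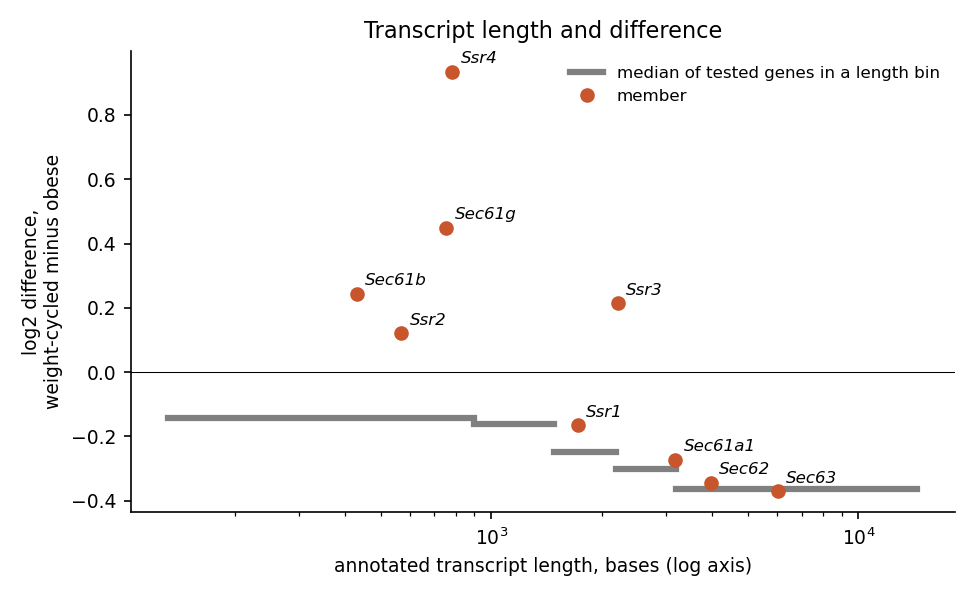
Log2 difference, weight-cycled minus obese, against annotated transcript length on a log axis, with members as points and grey bars for the median of tested genes in each of 5 length bins. Sec61a1, Sec62 and Sec63 lie on or next to the bars, and Ssr4, Sec61g, Sec61b, Ssr2 and Ssr3 lie above them.

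Idh3g and Alg2 are the tested genes that begin next to a member on the other strand, and both had differences below 0. Idh3g, whose annotated start is 131 bases from that of Ssr4, was at 28.7, 28.6, 25.2 and 23.8 TPM in obese and 24.8, 20.7, 20.6 and 20.7 TPM in weight-cycled libraries. Weight-cycled replicate 1 lay within the obese range and the other 3 below it, and the log2 difference was -0.28 (SE 0.0995, limma adjusted p = 0.0542), near the median of -0.26 over tested genes. Alg2, a glycosylation enzyme gene that starts 325 bases from Sec61b, ranged from 15.4 to 17.8 TPM in obese and from 10.1 to 14.7 TPM in weight-cycled libraries, without overlap, and fell by 0.44 on the log2 scale (SE 0.116, limma adjusted p = 0.0345). Pseudogene Gm5540, within 1000 bases of the start of Ssr3, was below 0.04 TPM in every library.

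Elements that bind factors of the unfolded protein response were looked for on both strands of the 250 bases before the start of 7 members, since Ssr2 and Sec61a1 had no window. The endoplasmic reticulum stress element was in 0 of 7 windows and in 0.113% of 32817 promoter windows. The endoplasmic reticulum stress element II and the unfolded protein response element TGACGTGG were also in 0 of 7, against 0.0305% and 0.564% of windows. The part CCAAT was found before Ssr3, Sec61g and Sec63, that is in 3 of 7 windows against 33.8% of all, and CCACG before Ssr1, Ssr3 and Sec63, in 3 of 7 against 28.3%. Counting both strands, the 2 stress elements and TGACGTGG each contain CCACG, and the 2 stress elements also contain CCAAT. Neither part was in the windows of Ssr4, Sec61b and Sec62.

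Insulin RNA, the main cargo, was set beside the members. Ins1 and Ins2 together made up 76.9% to 78.4% of TPM in obese and 75.4% to 78.8% in weight-cycled libraries. There were 1545 to 1990 insulin TPM per TPM of Ssr4 in obese and 743 to 1180 in weight-cycled libraries, which restates the values of Ssr4 that chose the set. Per TPM of Sec61a1 there were 20776 to 27511 and 23716 to 36995, with overlap. The 9 members summed to 1109 ± 57.1 TPM in the obese and 1618 ± 291 TPM in the weight-cycled group, and to 677 ± 11.9 and 778 ± 130 TPM without Ssr4 (SD, n = 4 each).

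Other genes of protein entry, and genes of the unfolded protein response, were described in 8 lists. Of their 70 tested genes, limma called 6 higher and 11 lower, beside 1.21% higher and 23.9% lower among all tested genes, with a median log2 difference of -0.04 against -0.26 for all tested genes. Without weight-cycled replicate 1 it called 9 higher and 23 lower, and without obese replicate 1 or weight-cycled replicate 4 it called 0 in either direction. Without obese replicate 3 or weight-cycled replicate 2 it also called 0, without obese replicate 2 it called 2 higher and 0 lower, without weight-cycled replicate 3 it called 3 higher and 0 lower, and without obese replicate 4 it called 4 higher and 6 lower. Of the 6 higher genes, Sec11c, Creld2 and Derl3 were also called after median-of-ratios scaling, and these with Spcs1 and Sdf2l1 after length correction. None of the 11 lower genes was called after either. Stt3a, Emc10 and Wdr83os were above 0 under median-of-ratios scaling, at 0.09, 0.10 and 0.10, but below it under length correction, at -0.16, -0.04 and -0.12, where Mmgt1 was above 0 at 0.05.

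The steps before and just after the channel are targeting, removal of the signal peptide and addition of sugar chains. Of 10 genes of the signal recognition particle and its receptor, Srp9, which encodes a subunit that slows translation, was higher at 0.40 (SE 0.123), Srp54a and Srp54b, near-identical copies of the signal-binding subunit whose single values are uncertain, were lower at -0.46 (SE 0.127) and -0.45 (SE 0.123), and 7 did not pass. Of 5 signal peptidase genes, which encode the enzyme that removes the signal peptide, 2 were higher, 0 lower and 3 did not pass. Sec11c, a catalytic subunit gene, went from 203 ± 21.8 to 372 ± 83.7 TPM (SD, n = 4 each; log2 difference 0.85, limma adjusted p = 0.0243), and Spcs1, an accessory subunit gene, from 157 ± 14.6 to 202 ± 29.9 TPM. Sec11a, the other catalytic subunit gene, was at 0.14 and did not pass. Of 12 oligosaccharyltransferase genes, whose enzyme adds sugar chains beside the channel, 0 were higher and 11 did not pass. Stt3a, the catalytic subunit bound to the translocon, was lower at -0.28 (SE 0.0946, limma adjusted p = 0.0492). That is near the median of -0.26 over all tested genes. Ostc, a subunit that joins Stt3a to the channel, was at 0.39 and did not pass.

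Lists of other routes into the membrane had 0 genes called higher in the 8 libraries on TPM as deposited. Among all tested genes 1.21% were called higher and 23.9% lower. The lists are short, so nothing is read from their counts in either direction. Without weight-cycled replicate 1, 1 multipass translocon gene was called higher, beside 3.32% of all tested genes. Of 7 tail-anchor insertion genes, Bag6, Sgta and Wrb were lower, at -0.52, -0.44 and -0.40, and 4 did not pass. Of 10 genes of the endoplasmic reticulum membrane protein complex, an insertase, Mmgt1 and Emc10 were lower, at -0.31 and -0.27, and 8 did not pass. Of 6 genes of the multipass translocon, which inserts proteins with many membrane spans, Ccdc47 and Wdr83os were lower, at -0.51 and -0.26, and 4 did not pass. Emc10 and Wdr83os were near the median of -0.26 over all tested genes. Of 6 tested genes of other channel partners and lumenal chaperones, 0 passed on TPM as deposited. Hspa5 was at -0.04 (limma adjusted p = 0.819) and Tram1, a channel neighbour, at 0.02 (limma adjusted p = 0.831). After median-of-ratios scaling 1 gene of this list was called higher, and likewise 1 after length correction. Among all tested genes 1.27% and 3.31% were called in either direction in those 2 settings.

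Of 14 genes of the XBP1 and ATF6 arms of the unfolded protein response, Derl3, Creld2 and Sdf2l1 were higher, at 0.92 (SE 0.190), 0.73 (SE 0.162) and 0.69 (SE 0.158), Atf6 was lower at -0.51 (SE 0.166), and 10 did not pass. Derl3 encodes a degradation factor, and Creld2 and Sdf2l1 encode lumenal folding proteins. The sensor gene Atf6 went from 2.79 ± 0.396 to 1.72 ± 0.693 TPM (SD, n = 4 each; limma adjusted p = 0.0461). Of the 14 genes, 8 were above 0 and the others below it. Among all tested genes 1.21% were called higher and 23.9% lower, and nothing is read from the counts of this list. The median of the list was 0.11, against 0.12 over the translocon members, 0.14 over the signal peptidase genes and -0.26 over all tested genes.

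**Figure D5:**
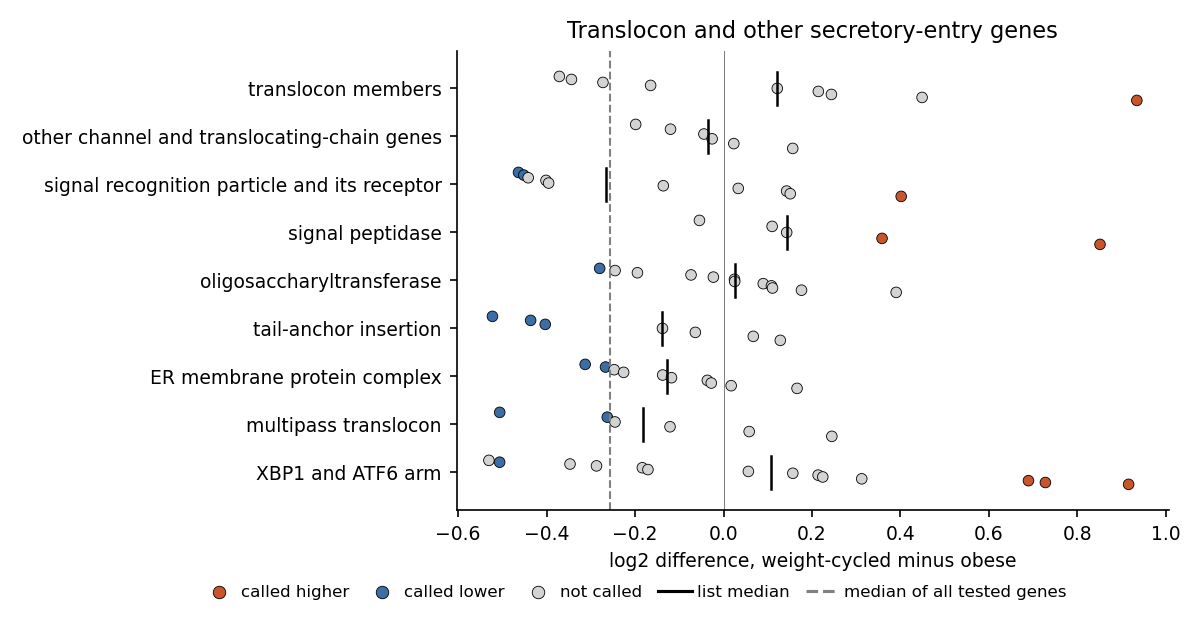
Log2 difference, weight-cycled minus obese, for the 9 translocon members and for the tested genes of 8 lists, with called genes coloured, list medians as black bars and the median of all tested genes, -0.26, dashed. Signal peptidase and the XBP1 and ATF6 list hold 5 of the 6 genes called higher, and Ssr4 at 0.93 lies just beyond Derl3 at 0.92.

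The genes whose levels were most like those of Ssr4 were sought among 7843 tested genes. Over the 8 libraries, Pearson's r of log2(TPM + 1) with Ssr4 was 0.995 for Sec11c, 0.994 for Ggh, a lysosomal hydrolase gene, 0.990 for Rplp0, a ribosomal protein gene, 0.988 for Fkbp11, which encodes a peptidyl-prolyl isomerase, and 0.986 for Sdf4, a lumenal calcium-binding protein gene. After the mean of each group was subtracted, so that the difference between groups does not enter, the order was Ggh at 0.993, Fkbp11 at 0.985, Sec11c at 0.979, Tmem160 at 0.974 and Lage3 at 0.974. Among the members, r after that subtraction was 0.79 for Sec61b and 0.67 for Sec61g, 0.47 for Ssr2, -0.11 for Ssr3 and between -0.55 and -0.32 for Ssr1, Sec61a1, Sec62 and Sec63. The genes named first were picked as the highest of all, so no comparison of them with the members is made. These correlations rest on 8 points and carry no p.

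Marker genes of several cell types are given beside Ssr4, since cells that secrete much protein also carry translocon RNA. In whole islets, a change in the share of a cell type and in RNA per cell cannot be told apart. The 10 plasma and B cell markers summed to 2.41 to 5.04 TPM in obese and 1.34 to 3.62 TPM in weight-cycled libraries, with Jchain and Mzb1 below 0.2 TPM on average in both groups and Tnfrsf17 at 0 in all 8. The 11 acinar markers summed to 2582 to 4766 TPM in obese libraries and 3275 to 7604 TPM in weight-cycled ones, and of 10 tested 0 passed. The highest acinar sum was in weight-cycled replicate 1. Of 6 alpha-cell markers 2 were higher, Ttr and Gc, while 4 did not pass, with sums of 4565 to 12317 and 3124 to 8526 TPM. Of 7 beta-cell markers, 4 were lower, Slc2a2, Mafa, Nkx6-1 and Ucn3, and their sums, almost all insulin, were 789602 to 803440 and 784915 to 812594 TPM. Of the tested markers of other cells, 3 of 3 were lower for macrophages, 1 of 4 for endothelium and 1 of 2 for duct. For plasma and B cells 1 of 2 tested was lower. No marker of these cell types was higher, and the 3 delta and PP markers did not pass. Among all tested genes 1.21% were called higher and 23.9% lower. Macrophage markers summed to 16.0 to 24.1 TPM in obese libraries and 9.61 to 16.4 TPM in weight-cycled ones, endothelial markers to 28.5 to 49.5 and 16.7 to 37.2 TPM, and stromal markers, of which 0 could be tested, to 1.43 to 1.95 and 0.998 to 2.32 TPM. The part of these cells in the difference of Ssr4 was not tested.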

How the data were processed

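The authors deposited TPM for each gene, and the submitters' processing notes name Salmon 1.5.2 and mm10. The sources used here do not give the annotation or how transcripts were summed to genes. Columns summed to 999930 to 999949. Of 35596 gene IDs, 35527 had a symbol. Coordinates and lengths (the median over protein-coding transcripts) came from GENCODE M21 on the same assembly.

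A mean of at least 1 TPM was required, and limma 3.58.1 (R 4.3.3, trended variance) was run on log2(TPM + 1), two-sided, without covariates, with Benjamini-Hochberg adjustment at 0.05. Differences on this scale understate changes of low genes. The fit was tested on simulated data. No count model was used, as TPM are no counts.

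The members and gene lists were chosen with earlier results of these data known. Genes were named by rule: the 9 members, up to 4 of the smallest p in each list, the 5 most like Ssr4 by each measure, genes starting within 1000 bases of a member on the other strand, and Ins1 and Ins2. Tram1, Sec61a2 and marker genes, which are outside that rule, were named after their values were seen. Alternatives were pseudocounts of 0.1 and 5, no filter, a minimum of 5 TPM, 3 other scalings, a length correction (loess, span 0.5), array weights, a block for the replicate number, and leaving out each library. Median-of-ratios scaling and length correction without weight-cycled replicate 1 were added after the data were seen.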

Additional observations from a re-analysis of the deposited data

Results flagged for a closer look

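In 120 groups of 4 libraries, 3 had 1 library far from the other 3 by Dixon's ratio, where chance gives about 6. Sec61g was at 41.1 TPM in obese replicate 3 where the other 3 obese libraries were at 35.5 to 35.6 TPM. The ratio of Ssr4 to Sec61b was 1.30 in obese replicate 2 against 1.05 to 1.09. Asna1, the targeting ATPase gene of tail-anchored proteins, was at 27.8 TPM in obese replicate 4 against 31.6 to 32.0 TPM.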

How the results depend on the processing

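Limma called 98 genes higher and 1946 lower, 1 member, and 6 higher and 11 lower list genes, and each count moved with the processing. Without the filter on low values every one of these was 0 (5686 genes at an unadjusted p under 0.05). A minimum of 5 TPM gave 1001 lower genes, but fewer genes were tested, so that count cannot be set directly beside 1946. Median-of-ratios scaling gave 24 lower genes and 0 lower list genes, quantile scaling 173 higher, 124 lower and 0 lower list genes, and length correction 124 lower genes, 2 members and 0 lower list genes. Rescaling without hormone and mitochondrial genes gave 2 members. Array weights gave 296 higher and 4499 lower genes, 6 members, and 16 higher and 25 lower list genes. Leaving out 1 library gave 0 to 270 higher and 0 to 4441 lower genes, 0 to 6 members, and 0 to 9 higher and 0 to 23 lower list genes. Each count was highest without weight-cycled replicate 1 and 0 without obese replicate 1, and the member count was also 0 without weight-cycled replicate 4. Chosen after the data were seen, median-of-ratios scaling without weight-cycled replicate 1 gave 2043 higher and 949 lower genes, 6 members, and 41 higher and 2 lower list genes, and length correction without it 1033, 1084, 5, 31 and 5. The cause of these shifts was not tested.

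Deviations of same-numbered libraries from their group means had correlations of 0.21, -0.28, -0.05 and 0.23 over tested genes. These differ in sign, and so few correlations cannot settle whether the numbers pair the libraries. With the replicate number as a block limma called 149 genes higher and 2754 lower, 3 members (Ssr4, Sec61g and Sec62), and 8 higher and 11 lower list genes.

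All 8 neighbouring pairs in the order of levels passed with each pseudocount and without each library. Nothing is read from this for Ssr4 over Sec61b, which holds the values that chose the set. Within the obese or the weight-cycled group alone 0 passed, since 4 libraries cannot reach the threshold.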
